A study of Mus musculus with 6 samples.

Results

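A list of 34 genes of glycolysis and of the response to low oxygen was taken, and all of those present in the deposited count table were kept, whatever their values. The table held 30 of the 34 among its 11881 genes, 22 of glycolysis and 8 of the hypoxia response, and Egln3, Vegfa, Car9 and Ndrg1 were not analysed here. The 6 RNA-seq libraries came from microglia, the resident macrophages of the brain, sorted as CD11b+CD45low cells from the hippocampus of male mice at postnatal days 17 to 21. Of the libraries, 3 were labelled Mll5+/-, from mice with 1 disrupted copy of Mll5 (now Kmt2e, which encodes an MLL-family protein), and 3 were labelled WT. The labels name no transgene and no treatment. Each library has a number of its own in its title and was taken as 1 mouse, and replicate numbers below only name libraries.

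Glycolysis turns glucose into pyruvate and lactate in a chain of enzymes, and at several steps a cell can use one of a family of isozymes that differ in control and tissue. Oxygen acts on this chain through hypoxia-inducible factor (HIF): in normal oxygen, prolyl hydroxylases mark HIF-1-alpha for destruction, and in low oxygen it binds the short DNA core ACGTG or GCGTG near its targets, which include most glycolytic genes. Microglia are known to switch towards glycolysis when activated, and in mouse brain Hk2 is known as the hexokinase of microglia.

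The libraries held between 21075570 and 29730400 counts, and levels are given as CPM, counts scaled to the same library size. A count of 3 was worth 0.104 to 0.142 CPM, a floor that covers counting error only. All 10 microglial markers were present, at a summed level of 7328 to 8301 CPM in Mll5+/- labelled mice, against 8981 to 13215 CPM in WT labelled mice, a gap carried by P2ry12, which ran from 1087 to 1232 CPM with the Mll5+/- label and from 1366 to 5499 CPM with the WT label. Kmt2e itself had 648, 298 and 513 CPM in Mll5+/- labelled mice, against 480, 378 and 688 CPM in WT labelled mice. Its log2 fold change came to -0.08 (SE 0.314), with a 95% interval from -0.79 to 0.63 that leaves out a loss to 50%. Since the labels do not say which part is disrupted, a count over the whole gene may not show it, and genotypes are given as labelled. Mll5+/- replicate 3 stood apart: its Spearman correlation with the other libraries over tested genes ran from 0.829 to 0.849, against 0.860 to 0.897 for all other pairs.

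Promoter windows from RefSeq, from 250 bases before to 50 bases after a start site (build GRCm38.p6, written 5′ to 3′ on the strand of the gene), are shown for 4 members. Hk2 is shown as the member with the highest CPM, and Slc2a1 as the glucose transporter whose levels did not overlap between genotypes. P4ha1 and Pfkfb3 are shown because their levels ran in nearly the same order over the libraries, a choice made after seeing the values. Capitals mark every ACGTG or GCGTG on either strand, so that the reverse complements CACGT and CACGC are also in capitals, and overlapping matches are counted singly.
Hk2 (chr6:82774405-82774704, minus strand): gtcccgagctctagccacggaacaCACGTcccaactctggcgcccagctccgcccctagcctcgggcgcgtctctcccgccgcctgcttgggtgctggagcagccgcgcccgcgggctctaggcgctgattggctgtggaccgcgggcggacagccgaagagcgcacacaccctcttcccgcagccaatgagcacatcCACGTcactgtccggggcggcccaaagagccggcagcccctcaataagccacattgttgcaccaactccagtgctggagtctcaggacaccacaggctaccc
Slc2a1 (chr4:119108495-119108794, plus strand): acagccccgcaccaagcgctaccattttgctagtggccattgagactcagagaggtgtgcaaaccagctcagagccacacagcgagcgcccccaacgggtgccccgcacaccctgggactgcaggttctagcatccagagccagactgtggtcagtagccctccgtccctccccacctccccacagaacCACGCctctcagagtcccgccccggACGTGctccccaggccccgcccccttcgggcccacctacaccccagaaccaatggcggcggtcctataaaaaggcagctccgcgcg
P4ha1 (chr10:59323046-59323345, plus strand): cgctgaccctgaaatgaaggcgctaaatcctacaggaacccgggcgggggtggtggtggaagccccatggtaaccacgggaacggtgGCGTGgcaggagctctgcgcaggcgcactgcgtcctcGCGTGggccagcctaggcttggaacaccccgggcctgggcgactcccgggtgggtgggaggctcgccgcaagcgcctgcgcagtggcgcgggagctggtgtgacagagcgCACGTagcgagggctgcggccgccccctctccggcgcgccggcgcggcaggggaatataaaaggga
Pfkfb3 (chr2:11553880-11554179, minus strand, the first of 2 windows): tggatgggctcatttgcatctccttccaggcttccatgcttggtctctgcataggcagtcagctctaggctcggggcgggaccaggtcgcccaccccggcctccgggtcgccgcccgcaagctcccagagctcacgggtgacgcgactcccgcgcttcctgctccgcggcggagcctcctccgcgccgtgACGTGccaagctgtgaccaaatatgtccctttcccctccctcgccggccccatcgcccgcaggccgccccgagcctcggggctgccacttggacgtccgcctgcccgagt
The window of Hk2 held 2 matches, that of Slc2a1 held 2, that of P4ha1 held 3 and that of Pfkfb3 held 1, while the second window of Pfkfb3, which is not shown, held 4. Of the 28 listed members with a window, 25 (89.3%) held at least 1 match in at least 1 window, against 67.8% of the 8670 tested genes with a window. Of the 11074 single windows of these tested genes, 62.0% held a match, a share per window and not per gene. A gene with several windows has more room for a match, and neither windows per gene nor GC content was matched here. Slc2a3 and Bnip3l are not shown. A match is a run of letters in this window and is not a measured binding site.

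Hk2, which encodes hexokinase 2, the enzyme that traps glucose in the cell as glucose-6-phosphate, was the member with the highest CPM. It lies on chromosome 6 from 82702006 to 82751435 (build mm39, as are all gene positions below). Its level was 1175, 1078 and 913 CPM in Mll5+/- labelled mice, against 1099, 796 and 782 CPM in WT labelled mice. The genotypes overlapped, with WT replicate 1 above 2 of the libraries labelled Mll5+/-. Hk2 alone took between 38.7% and 51.7% of all counts of the 30 members in a library.

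To compare genes with each other, levels were divided by the length of the transcript with the longest coding sequence, as the mean CPM per kilobase over the 6 libraries. On that scale Hk2 stood at 177, followed by Bnip3l at 106 and Ldha at 52.5. Gapdh had 40.7, Aldoa 29.3, P4ha1 28.8 and Hif1a 20.5 CPM per kilobase. Pgk1, at 2.86, and Pgam1, at 2.83 CPM per kilobase, were far lower, and the 3 phosphofructokinase genes had between 0.555 and 1.48. Eno2, the enolase of neurons, was lowest at 0.0814. The top of this order depended on the length used. Divided by coding length alone, Bnip3l stood above Hk2, at 522 against 354 CPM per kilobase, with Ldha at 88.1.

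**Figure D1:**
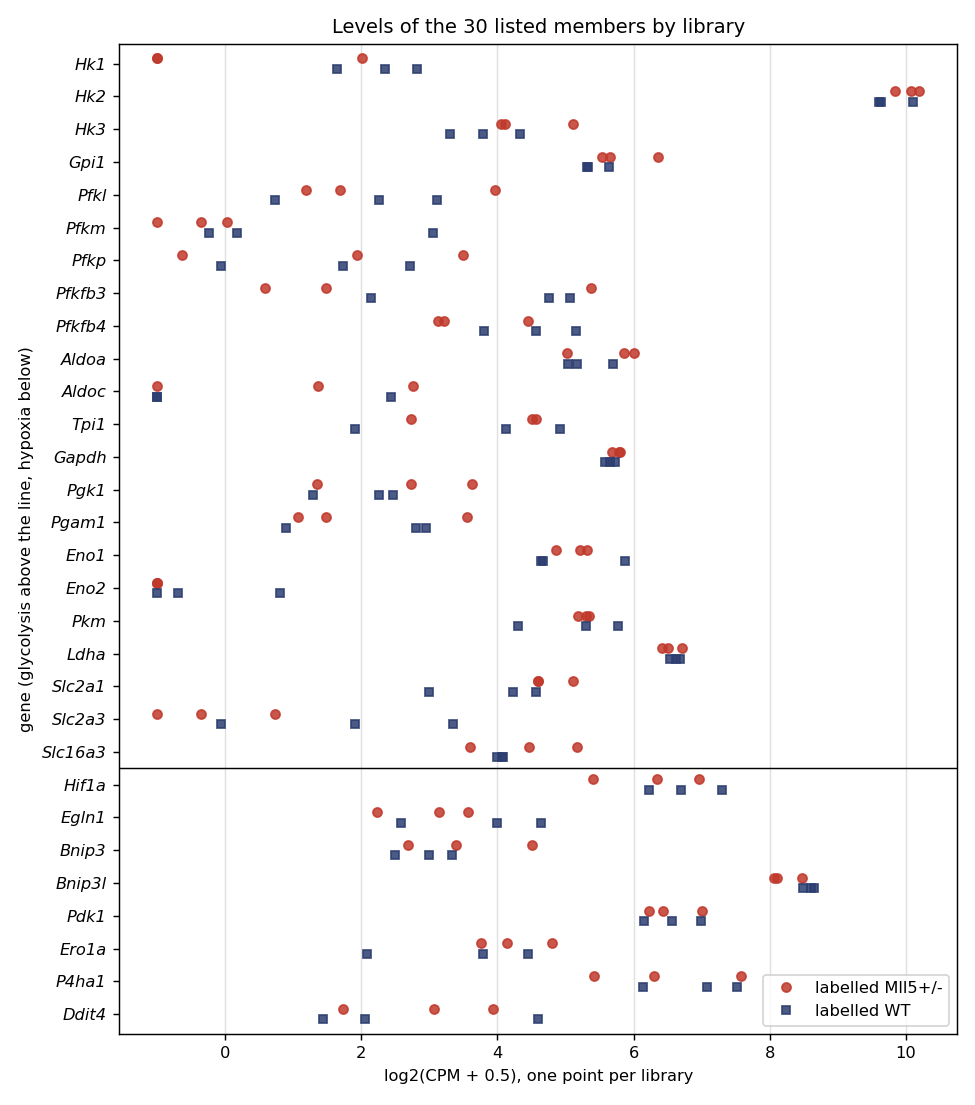
Levels of the 30 listed members, as log2(CPM + 0.5), with 1 point per library (circles, labelled Mll5+/-; squares, labelled WT); glycolysis genes are above the line and hypoxia genes below it. Hk2 lies right of all other members in every library, Gapdh and Ldha have tight points, and Pfkfb3, Pfkp and Aldoc are spread widely within both genotypes.

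Part of this order has to be read with the sequence of the genes in mind. Several glycolytic genes have processed copies, often pseudogenes, elsewhere in the mouse genome, and reads that fit a gene and its copy alike may be dropped or shared by a counting step that the labels and notes do not describe. Near-identical copies were therefore searched among GENCODE M21 transcripts, as stretches of at least 100 bases of coding sequence with at least 97% identity at another locus. Such copies were found for 9 of the 30 members, against 10.2% of the 10746 tested genes with a coding transcript. Gapdh had 47, of which 44 are annotated as pseudogenes and which together cover 94.4% of its coding sequence. Pgk1 and Bnip3 had 3 each, Eno1 had 2, and Tpi1, Gpi1, Pgam1, Pkm and Bnip3l had 1 each. The copies covered all of the coding sequence of Pgk1, Bnip3, Eno1, Pgam1, Pkm and Bnip3l, 62.3% of Gpi1 and 34.4% of Tpi1. Hk2, Ldha, Aldoa, P4ha1 and Hif1a had none. The levels of those 9 genes are therefore uncertain, and the part of the copies in them was not tested. Only 1 of the copies, Eno1b, is itself in the deposited table.

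Across all 10832 genes that passed the low-count filter, 0 (0%) had an adjusted p under 0.05 between the genotypes (edgeR's quasi-likelihood test, smallest adjusted p = 0.9995). Of the 30 members 29 passed the filter, all but Eno2, and 0 of them had an adjusted p under 0.05. At an unadjusted p under 0.05 edgeR had 0 of the 29 members, against 2.88% of all tested genes (1.36% higher and 1.52% lower). DESeq2 called 29 genes (0.255% of those with an adjusted p), of which 0 were members, and had 0 members at an unadjusted p under 0.05, against 4.87% of genes with a p. Levels of 2 of the 29 members did not overlap between genotypes, Slc2a1 on the higher and Bnip3l on the lower side, which is 6.90% against 9.32% of all tested genes.

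How much change could have been seen differs between members. The 95% interval of the log2 fold change lay within 1 on either side of 0 for 6 of the 29, namely Hk2, Bnip3l, Ldha, Gapdh, Pdk1 and Pkm, so for these a doubling or a loss to 50% lies outside the interval. For the other 23 the interval reached beyond 1 in at least 1 direction, and for Pfkm, Slc2a3, Hk1 and Aldoc it spanned more than 8 log2 units. The median SE was 0.587 over the members and 0.629 over all tested genes.

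**Figure D2:**
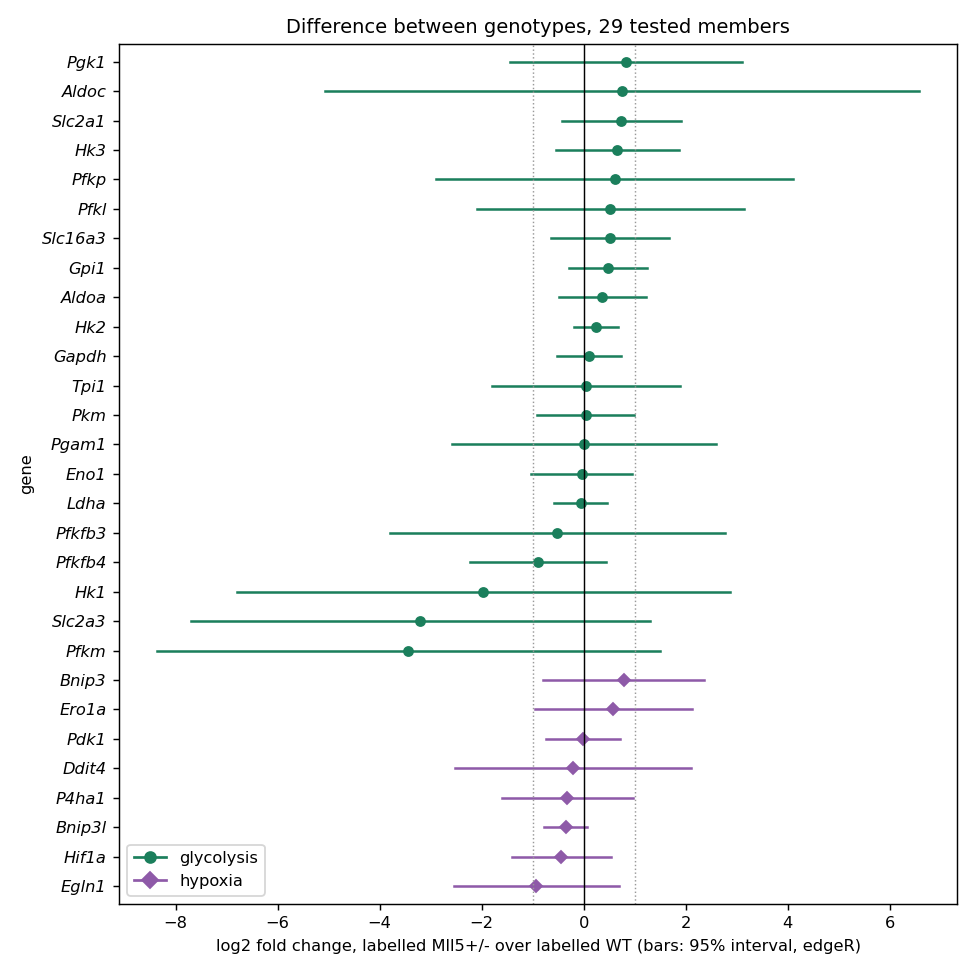
Log2 fold change of the 29 tested members, labelled Mll5+/- over labelled WT, with 95% intervals from edgeR (circles, glycolysis; diamonds, hypoxia; dotted lines at 1 and -1). Every interval includes 0, and Bnip3l comes nearest to leaving it out.

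Glucose enters microglia through facilitative transporters. Slc2a1 encodes GLUT1, the widespread transporter that is also abundant in brain endothelium, and lies on chromosome 4 from 118965908 to 118995180. It had 23.7, 33.9 and 23.7 CPM in Mll5+/- labelled mice, against 23.1, 18.2 and 7.46 CPM in WT labelled mice. The genotypes did not overlap, but WT replicate 1 lay just under the lowest library labelled Mll5+/-. The log2 fold change came to 0.74 (SE 0.514, 95% interval -0.43 to 1.90, unadjusted p = 0.185 in edgeR, adjusted p = 0.9995), and 4.68% of all tested genes were separated in this direction. Without WT replicate 3 it was 0.39 (unadjusted p = 0.414), and without Mll5+/- replicate 3 it was 0.82. The 4 endothelial and mural markers in the table, of 8 looked for, summed to 16.96 to 23.3 CPM in Mll5+/- labelled mice, against 13.8 to 30.4 CPM in WT labelled mice. Cldn5, Tek, Pdgfrb and Rgs5 were not analysed here. Pecam1 was highest in Mll5+/- replicate 1 (19.4 CPM) and lowest in WT replicate 3 (4.37 CPM), where Slc2a1 was lowest too, whereas Flt1 was at 0 in all 3 libraries labelled Mll5+/- and highest in WT replicate 3 (15.9 CPM). The part of such cells in the Slc2a1 level was not tested. In these bulk samples, fewer cells of a type and less RNA per cell cannot be told apart.

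Slc2a3 encodes GLUT3, the high-affinity transporter of neurons. It had 0, 1.16 and 0.284 CPM in Mll5+/- labelled mice, against 3.26, 0.462 and 9.72 CPM in WT labelled mice, so the genotypes overlapped and WT replicate 3 was highest. Its log2 fold change of -3.20 came with an SE of 1.98 (unadjusted p = 0.141 in edgeR), and ran from -4.98 without Mll5+/- replicate 2 to -1.94 without WT replicate 3. Neuron markers, 4 of 8 in the table, summed to 134 to 160 CPM in Mll5+/- labelled mice, against 146 to 203 CPM in WT labelled mice, most of it Rtn1. Rtn1 was highest in WT replicate 3, as Slc2a3 was, but Snap25 was highest in Mll5+/- replicate 3 (32.2 CPM, against 16.3 CPM in WT replicate 3) and Map2 was at 0 in WT replicate 3, and the part of neurons in the Slc2a3 level was not tested. Slc2a1 took 98.5 ± 1.67% of the counts of both transporters in Mll5+/- labelled mice, against 76.2 ± 28.8% in WT labelled mice (SD, n = 3 each), where WT replicate 3 had 43.4% and the other two had 87.6% and 97.5%.

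At the hexokinase step the choice of isozyme was fixed. Hk2 held 98.3%, 98.5% and 96.4% of hexokinase counts in Mll5+/- labelled mice, against 98.0%, 97.6% and 98.2% in WT labelled mice. The difference of the means, -0.19 percentage points, was smaller than the SD of 1.16 within the libraries labelled Mll5+/-. Hk1, the hexokinase of neurons and most other tissues, had 0 counts in Mll5+/- replicates 2 and 3, which allows up to 0.105 and 0.142 CPM, and between 2.63 and 6.58 CPM in the other 4 libraries (log2 fold change -1.97, SE 2.13). Without Mll5+/- replicate 1 the libraries labelled Mll5+/- hold 0 counts of Hk1, so no fold is given, and the unadjusted p was 0.00711 in edgeR. Hk3, a hexokinase of myeloid cells, ran from 16.05 to 33.9 CPM in Mll5+/- labelled mice and from 9.37 to 19.6 CPM in WT labelled mice, with a log2 fold change of 0.66 (SE 0.529). Markers of monocytes and neutrophils, 4 of 6 in the table, summed to 222 to 278 CPM in Mll5+/- labelled mice, against 196 to 256 CPM in WT labelled mice. Csf3r made up most of that sum and was highest in Mll5+/- replicate 3, as Hk3 was. There S100a9 was at 0 and Plac8 at its lowest (0.331 CPM), and the part of such cells in the Hk3 level was not tested. Hk2 itself had a log2 fold change of 0.24 (SE 0.188, 95% interval -0.18 to 0.67, unadjusted p = 0.230 in edgeR).

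Phosphofructokinase, which commits sugar to glycolysis, showed no fixed choice. The step rested on only 89 to 556 counts per library for Pfkl, Pfkm and Pfkp together, which encode the liver, muscle and platelet subunits. Pfkl had 1.78, 2.70 and 15.03 CPM in Mll5+/- labelled mice, against 4.26, 1.15 and 8.15 CPM in WT labelled mice. Pfkp had 3.31, 0.140 and 10.7 CPM in Mll5+/- labelled mice, against 0.460, 6.04 and 2.81 CPM in WT labelled mice. The leading gene changed from mouse to mouse within both genotypes: Pfkp held 65.1% of the step in Mll5+/- replicate 1 and 80.1% in WT replicate 2, and Pfkl held the most in the other 4. Pfkl had a log2 fold change of 0.52 (SE 1.15) and Pfkp one of 0.60 (SE 1.54). Pfkm had 0, 0.281 and 0.520 CPM in Mll5+/- labelled mice, against 0.627, 0.346 and 7.81 CPM in WT labelled mice, so that its log2 fold change of -3.44 (SE 2.17) rested on WT replicate 3.

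Pfkfb3 and Pfkfb4 encode enzymes that make fructose-2,6-bisphosphate, the strongest activator of phosphofructokinase, and both are known HIF targets. Pfkfb3 had 41.2, 2.28 and 0.992 CPM in Mll5+/- labelled mice, against 33.2, 26.6 and 3.92 CPM in WT labelled mice. Each genotype thus held libraries of high and of low level, and replicate 1 stood far above replicates 2 and 3 among those labelled Mll5+/-. Pfkfb4 had 8.76, 21.3 and 8.27 CPM in Mll5+/- labelled mice, against 23.2, 35.1 and 13.4 CPM in WT labelled mice, with a log2 fold change of -0.90 (SE 0.587, unadjusted p = 0.158 in edgeR) that was -1.50 without Mll5+/- replicate 2 (unadjusted p = 0.0439). Pfkfb3 held 82.5% of the pair's counts in Mll5+/- replicate 1 but 9.67% and 10.7% in replicates 2 and 3, and 58.8%, 43.0% and 22.6% in WT replicates 1, 2 and 3. Pfkfb2, a gene of the same family outside the list, was not counted in these shares. It had 21.9, 35.0 and 13.8 CPM in Mll5+/- labelled mice, against 20.1, 20.3 and 36.4 CPM in WT labelled mice. Its mean over the 6 libraries, 24.6 CPM, was above those of Pfkfb3 (18.0 CPM) and Pfkfb4 (18.4 CPM). Without Mll5+/- replicate 1 the log2 fold change of Pfkfb3 was -3.69 (unadjusted p = 0.00992 in edgeR), against -0.52 (unadjusted p = 0.721) with all 6 libraries.

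**Figure D3:**
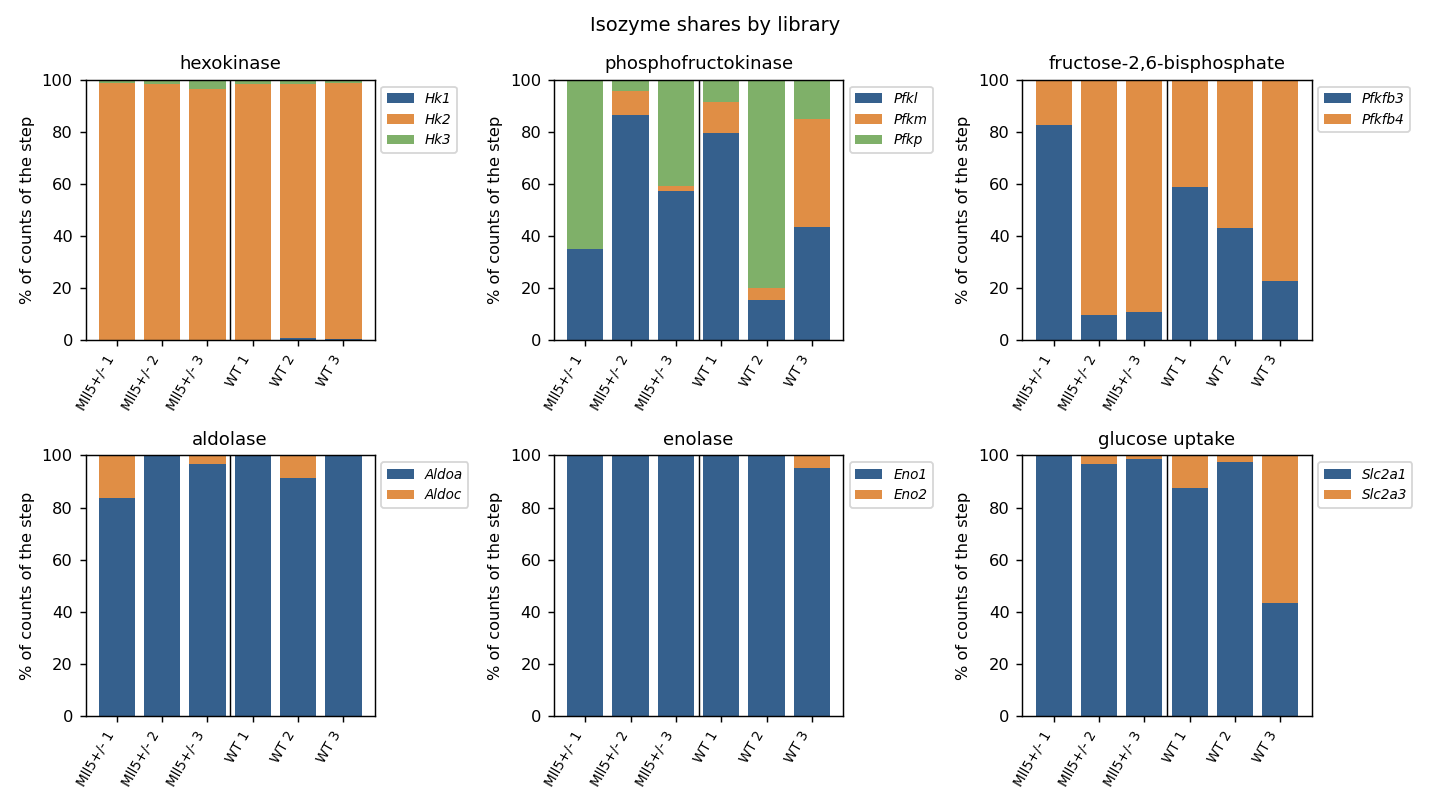
Share of each listed isozyme in the counts of the listed isozymes of its step, in percent. The 3 libraries labelled Mll5+/- are left of the line and the 3 labelled WT right. Genes outside the list, such as Eno3 and Pfkfb2, are not counted. Among listed genes, Hk2 and Eno1 take over 95% of their steps and Aldoa at least 83.6%. The lead among the listed phosphofructokinase and fructose-2,6-bisphosphate genes changes within both genotypes. Slc2a3 takes 56.6% of the counts of Slc2a1 and Slc2a3 in WT replicate 3.

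Gpi1, which isomerises glucose-6-phosphate, had 45.7, 49.9 and 81.5 CPM in Mll5+/- labelled mice, against 49.3, 39.6 and 39.2 CPM in WT labelled mice. WT replicate 1 lay between the libraries labelled Mll5+/-, and the log2 fold change came to 0.47 (SE 0.338). Aldoa, the main aldolase, had 31.9, 57.4 and 63.9 CPM in Mll5+/- labelled mice, against 32.2, 51.3 and 35.6 CPM in WT labelled mice, and its log2 fold change of 0.36 (SE 0.378) lay within overlapping levels. Aldoc, the aldolase of astrocytes, had 0 counts in Mll5+/- replicate 2 and WT replicates 1 and 3, and at most 6.23 CPM elsewhere (log2 fold change 0.75, SE 2.56). Astrocyte markers, 7 of 10 in the table (without Gfap, Aldh1l1 and Gjb6), summed to 262 to 559 CPM in Mll5+/- labelled mice, against 395 to 575 CPM in WT labelled mice. Slc1a3 made up most of that sum and was lowest in Mll5+/- replicate 1, the library with most Aldoc. Gja1 did not overlap between genotypes, with 3.51, 6.71 and 1.75 CPM in Mll5+/- labelled mice, against 22.7, 23.2 and 28.6 CPM in WT labelled mice (log2 fold change -2.64, unadjusted p = 0.00250 in edgeR). Plpp3 was separated in the same direction (log2 fold change -1.90, unadjusted p = 0.0131 in edgeR). Slc1a3 and Aqp4 had log2 fold changes of -0.27 and -0.31, Slc1a2, Sox9 and S100b had 0.42, 0.33 and 0.17, and all overlapped between genotypes. The part of astrocytes in the Aldoc level was not tested. Aldoa held 93.5 ± 8.68% of aldolase counts in Mll5+/- labelled mice, against 97.1 ± 5.05% in WT labelled mice (SD, n = 3 each).

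Of the enzymes between the triose phosphates and pyruvate, Gapdh was level and Tpi1, Pgk1 and Pgam1 scattered. Gapdh, the oxidising step that is often used as a reference gene, had 51.0, 54.5 and 55.2 CPM in Mll5+/- labelled mice, against 47.6, 49.9 and 52.6 CPM in WT labelled mice. Its coefficient of variation over the 6 libraries, 5.59%, was the lowest of the members, against a median of 47.0% over all tested genes, and its log2 fold change came to 0.10 (SE 0.277). Tpi1, which interconverts the triose phosphates, had 22.1, 23.2 and 6.14 CPM in Mll5+/- labelled mice, against 29.7, 3.23 and 16.9 CPM in WT labelled mice, with 1 low library in each genotype. Pgk1, the first step that makes ATP, had 6.11, 11.9 and 2.03 CPM in Mll5+/- labelled mice, against 4.31, 5.04 and 1.94 CPM in WT labelled mice. Pgam1, phosphoglycerate mutase, had 2.29, 11.2 and 1.61 CPM in Mll5+/- labelled mice, against 7.19, 6.47 and 1.35 CPM in WT labelled mice. Pgk1 and Pgam1 were both highest in Mll5+/- replicate 2 and lowest in WT replicate 3, and their genotypes overlapped. The log2 fold changes were 0.05 for Tpi1 (SE 0.813), 0.83 for Pgk1 (SE 0.999; 0.11 without Mll5+/- replicate 2) and 0.01 for Pgam1 (SE 1.14).

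Eno1, the general enolase, had 28.5, 39.4 and 36.6 CPM in Mll5+/- labelled mice, against 24.5, 58.3 and 24.8 CPM in WT labelled mice (log2 fold change -0.04, SE 0.437). Eno3, an enolase gene outside the list, was not counted in the isozyme shares. It had 12.2, 15.8 and 2.41 CPM in Mll5+/- labelled mice, against 10.7, 13.6 and 8.57 CPM in WT labelled mice. Eno2 had 0 counts in all 3 libraries labelled Mll5+/- and 0, 3 and 36 counts in WT labelled mice, too few for the filter, and no fold is given. Pkm, pyruvate kinase, had 35.7, 38.8 and 40.1 CPM in Mll5+/- labelled mice, against 19.2, 53.9 and 38.8 CPM in WT labelled mice. Its libraries labelled WT enclosed all 3 of those labelled Mll5+/-, and the log2 fold change came to 0.03 (SE 0.420). Whether Pkm was spliced to the M1 or M2 form cannot be read from counts per gene.

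Ldha, the lactate dehydrogenase subunit that favours lactate, had 85.1, 90.0 and 105 CPM in Mll5+/- labelled mice, against 91.9, 102 and 98.6 CPM in WT labelled mice. The difference of -0.06 on the log2 scale (SE 0.231, 95% interval -0.59 to 0.46) was smaller than the spread between libraries. Ldhb, the subunit of the reverse direction and no member of the list, had 69.6 ± 4.17 CPM in Mll5+/- labelled mice, against 73.0 ± 9.97 CPM in WT labelled mice (SD, n = 3 each). Per kilobase of transcript, Ldhb averaged 54.7 and Ldha 52.5 CPM over the 6 libraries, and per kilobase of coding sequence 71.1 and 88.1 CPM. Slc16a3 encodes MCT4, the lactate exporter of glycolytic cells. It had 35.5, 11.6 and 21.6 CPM in Mll5+/- labelled mice, against 16.3, 15.4 and 16.3 CPM in WT labelled mice, and so was tight in WT and wide in Mll5+/- (log2 fold change 0.52, SE 0.511).

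Hif1a encodes the oxygen-regulated HIF subunit, whose control acts mainly on the protein. Its level was 124, 80.7 and 41.8 CPM in Mll5+/- labelled mice, against 103, 74.5 and 157 CPM in WT labelled mice. The genotypes overlapped, with a log2 fold change of -0.44 (SE 0.427, unadjusted p = 0.328 in edgeR). Egln1, the main prolyl hydroxylase that marks HIF for destruction and itself a HIF target, had 11.3, 8.29 and 4.21 CPM in Mll5+/- labelled mice, against 24.4, 5.50 and 15.4 CPM in WT labelled mice. Its log2 fold change came to -0.93 (SE 0.716, 95% interval -2.55 to 0.70). For both genes Mll5+/- replicate 3 was the lowest of the libraries labelled Mll5+/- and WT replicate 2 the lowest of those labelled WT.

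Bnip3l and Bnip3 encode related receptors that direct mitochondria to autophagy. Bnip3l, on chromosome 14 from 67222688 to 67246326, was the most abundant hypoxia member, with 357, 267 and 276 CPM in Mll5+/- labelled mice, against 358, 391 and 401 CPM in WT labelled mice. The genotypes did not overlap, though Mll5+/- replicate 1 and WT replicate 1 differed by under 2 CPM, and 4.64% of all tested genes were separated in this direction. In edgeR after the low-count filter, Bnip3l had the smallest p of the members, with a log2 fold change of -0.35 (SE 0.186, 95% interval -0.78 to 0.07, unadjusted p = 0.0907 in edgeR, adjusted p = 0.9995). In DESeq2 its unadjusted p was 0.143, and the smallest was that of Slc2a3 (0.0669). In limma-voom the smallest was that of Hk1 (0.0698). Without Mll5+/- replicate 1 the log2 fold change of Bnip3l was -0.51 (unadjusted p = 0.0364 in edgeR), and without Mll5+/- replicate 3 it was -0.31 (unadjusted p = 0.172 in edgeR). Border macrophage markers, 5 of 6 in the table (without Pf4), summed to 86.1, 207 and 203 CPM in Mll5+/- labelled mice, against 104, 83.0 and 126 CPM in WT labelled mice, highest in the 2 libraries with least Bnip3l. Mrc1 made up most of that sum. Cd163 was highest in Mll5+/- replicate 3 (5.25 CPM) and Lyve1 in Mll5+/- replicate 2 (16.3 CPM). F13a1, however, was highest in WT replicate 3 (14.6 CPM), the library with most Bnip3l, and Ms4a7 in Mll5+/- replicate 1 (2.56 CPM). The part of border macrophages in the Bnip3l level was not tested. Bnip3 had 5.92, 10.01 and 22.3 CPM in Mll5+/- labelled mice, against 9.57, 5.12 and 7.49 CPM in WT labelled mice. Its log2 fold change of 0.78 (SE 0.694) was 0.10 without Mll5+/- replicate 3, and neither gene passed the test.

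**Figure D4:**
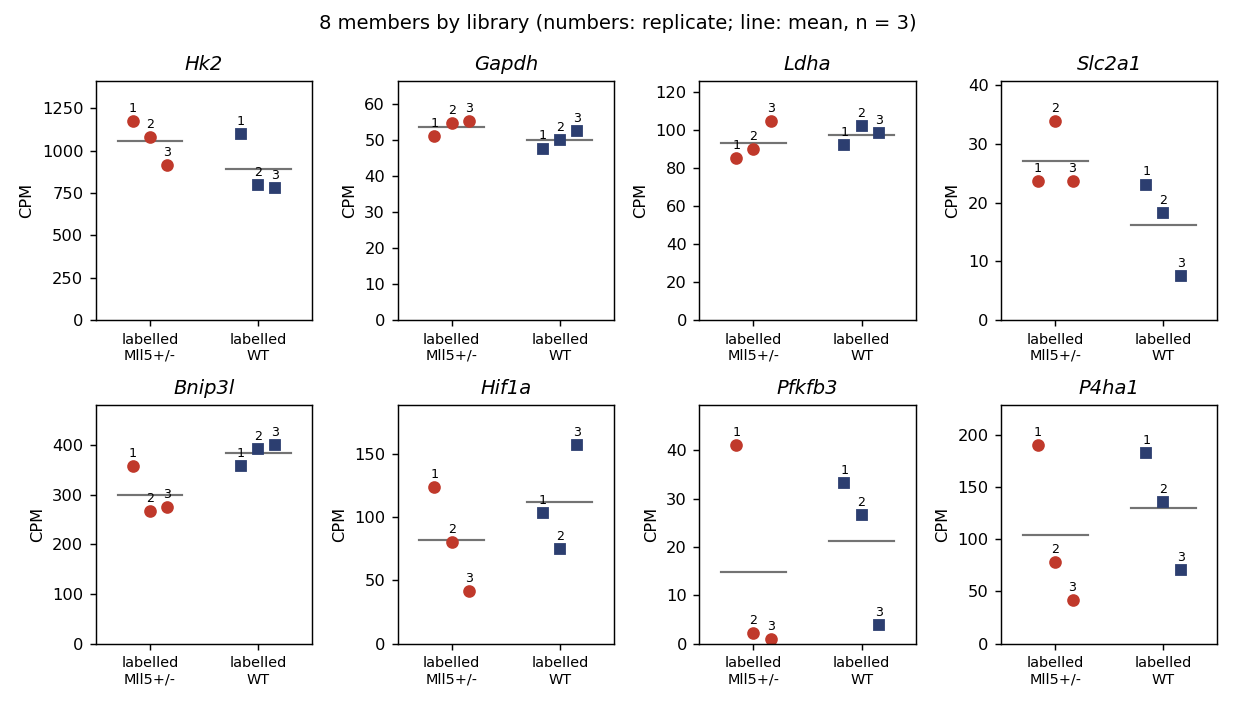
Levels in CPM of 8 members in each library (circles, labelled Mll5+/-; squares, labelled WT; numbers, replicates; lines, means of 3). Slc2a1 and Bnip3l separate the genotypes by a narrow gap, Gapdh and Ldha vary little, and Pfkfb3 and P4ha1 are high in Mll5+/- replicate 1 and WT replicates 1 and 2.

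The remaining hypoxia members act on mitochondria, the endoplasmic reticulum and growth signalling. Pdk1, which limits the use of pyruvate in mitochondria by inhibiting pyruvate dehydrogenase, ran from 74.0 to 128 CPM in Mll5+/- labelled mice and from 70.9 to 127 CPM in WT labelled mice (log2 fold change -0.02, SE 0.318). P4ha1, a collagen prolyl hydroxylase subunit, ran from 42.2 to 190 CPM in Mll5+/- labelled mice and from 70.3 to 183 CPM in WT labelled mice (log2 fold change -0.32, SE 0.561). Without Mll5+/- replicate 1 the value for P4ha1 was -1.12 (unadjusted p = 0.0473 in edgeR), and without Mll5+/- replicate 3 it was 0.04. Ero1a, an oxidase that drives disulphide formation, ran from 13 to 27.3 CPM in Mll5+/- labelled mice and from 3.75 to 21.3 CPM in WT labelled mice (log2 fold change 0.58, SE 0.675). Ddit4, a stress-induced inhibitor of mTORC1, ran from 2.80 to 14.8 CPM in Mll5+/- labelled mice and from 2.22 to 23.7 CPM in WT labelled mice (log2 fold change -0.22, SE 1.02). All 4 overlapped between genotypes.

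Set side by side, neither glycolysis nor hypoxia members held a gene that passed the test. Of the 21 tested glycolysis members 14 had positive and 7 negative log2 fold changes (median 0.10), and of the 8 tested hypoxia members 2 were positive and 6 negative (median -0.27). Over all tested genes 51.8% were positive and 48.2% negative, with a median of 0.02. The hypoxia median was -0.05 without Mll5+/- replicate 3. A score per library was taken as the mean of log2(CPM + 0.5) over the tested members of a group, each gene centred on its mean of 6 libraries. The glycolysis score was 0.08, -0.19 and -0.12 in Mll5+/- labelled mice, against 0.06, 0.19 and -0.03 in WT labelled mice. The hypoxia score was 0.18, -0.09 and -0.19 in Mll5+/- labelled mice, against 0.14, -0.11 and 0.07 in WT labelled mice. For glycolysis, the difference of mean scores was -0.15, against SDs of 0.139 and 0.108, and its sign was opposite to that of the median fold change. Pfkm, Slc2a3 and Hk1 had the lowest log2 fold changes of the glycolysis members (-3.44, -3.20 and -1.97) and 0 counts in at least 1 library. Such values weigh more on a mean than on a median, and the score without these genes was not tested. For hypoxia the difference was -0.07, against SDs of 0.192 and 0.128. Both scores overlapped between genotypes. Glycolysis minus hypoxia averaged -0.04 ± 0.102 in Mll5+/- labelled mice, against 0.04 ± 0.222 in WT labelled mice (SD, n = 3 each), a difference of -0.08 that is smaller than either SD. Its sign turned with a larger pseudocount, log2(CPM + 2), and without WT replicate 2, where it was 0.05 in both cases.

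**Figure D5:**
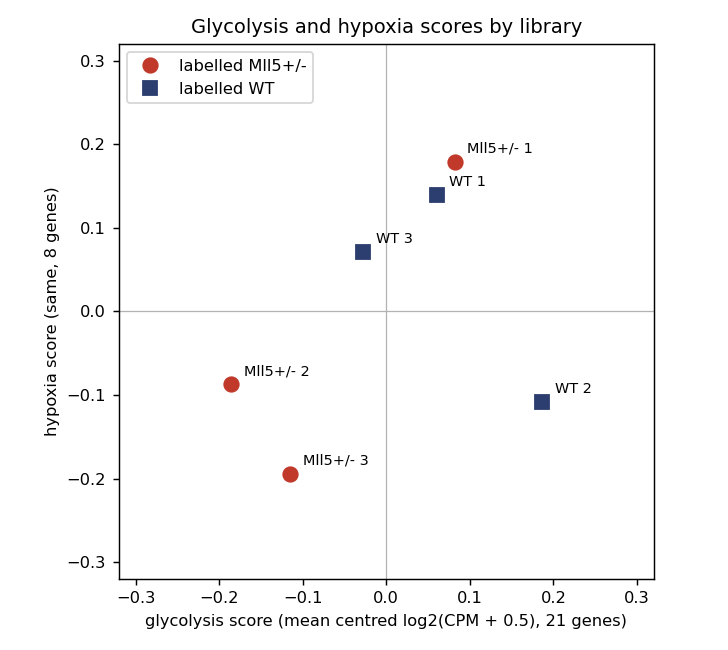
Hypoxia score (vertical) against glycolysis score (horizontal) per library, both as means of centred log2(CPM + 0.5) (circles, labelled Mll5+/-; squares, labelled WT). Mll5+/- replicate 1 lies beside WT replicate 1, while Mll5+/- replicates 2 and 3 are below 0 on both scores and WT replicate 2 is high on glycolysis alone.

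Genes of the same pathways outside the list were read from lists of further glucose metabolism and HIF genes. Of 63 further genes of glucose metabolism 49 were in the table and 46 were tested, and 0 passed, nor was any under an unadjusted p of 0.05 in edgeR. By role, positive log2 fold changes were found for 4 of 4 genes of gluconeogenesis and its control, 1 of 6 further isozymes, 5 of 8 tested pentose phosphate genes, 7 of 9 glycogen genes, 6 of 11 genes of pyruvate entry and 1 of 8 sugar and lactate transporters. Pdpr, Slc2a5, Narf and Arnt are named here after their values were seen. Pdpr, a regulatory subunit of pyruvate dehydrogenase phosphatase, was the 1 gene without overlap, 2.17% of the 46 against 9.32% of all tested genes, with 28.3 ± 2.47 CPM in Mll5+/- labelled mice, against 40.9 ± 1.62 CPM in WT labelled mice (SD, n = 3 each; log2 fold change -0.53, SE 0.323). Slc2a5, the fructose transporter GLUT5 that marks microglia, had 18.7 ± 8.59 CPM in Mll5+/- labelled mice, against 31.9 ± 8.70 CPM in WT labelled mice (SD, n = 3 each; log2 fold change -0.77, SE 0.495).

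Of 55 further HIF pathway genes 40 were in the table and 39 were tested, and 0 passed the adjustment. At an unadjusted p under 0.05 edgeR had 1, on the lower side, beside 1.52% of all tested genes. This was Mxi1, a MAX-binding antagonist of MYC and a HIF target, with 110, 130 and 83.6 CPM in Mll5+/- labelled mice, against 201, 164 and 138 CPM in WT labelled mice. The genotypes did not overlap, and the log2 fold change came to -0.64 (SE 0.259, unadjusted p = 0.0372 in edgeR, adjusted p = 0.9995). With Narf, 2 of the 39 were separated, 5.13% against 9.32% of all tested genes, both on the lower side. Narf had 70.0 ± 4.58 CPM in Mll5+/- labelled mice, against 87.0 ± 1.82 CPM in WT labelled mice (SD, n = 3 each). The most abundant was Bhlhe41, a transcriptional repressor, with 3940 ± 730.1 CPM in Mll5+/- labelled mice, against 3986 ± 408 CPM in WT labelled mice (SD, n = 3 each). Arnt, the constitutive partner of HIF-1-alpha, had 17.2, 121 and 10.4 CPM in Mll5+/- labelled mice, against 25.5, 18.8 and 8.92 CPM in WT labelled mice, with Mll5+/- replicate 2 alone at a high level.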

How the data were processed

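The authors deposited 1 table of raw, whole-number counts per gene symbol, with gene coordinates. TRIzol extraction, SMART-seq cDNA and a transposase library kit were used, per the labels' protocols. Per the submitters' processing notes, build mm39 and FastQC, STAR, StringTie and DESeq2 were used, but the sources used here do not give what each did, or how reads were counted and whether by strand. Without strand, reads of overlapping or antisense genes cannot be told apart. Genotype labels set the groups. Low-count genes were removed with filterByExpr (minimum count 10, minimum total 15), which kept 10832 of 11881, and libraries were scaled by TMM. CPM uses those sizes. All kept genes entered a robust quasi-likelihood fit (R 4.3.3 with edgeR 4.0.16 and limma 3.58.1), labelled Mll5+/- over labelled WT, two-sided, with Benjamini-Hochberg adjustment at 0.05. SEs came from the coefficient and its F statistic. DESeq2 1.42.0, limma-voom, other scalings and filters and left-out libraries were alternatives. P-values measure the spread between these libraries. Reads were amplified and carry no molecular identifiers, so limits from counts cover counting error only. Copies were searched with BLAST 2.17.0 on GENCODE M21, and 1 member was matched through an older symbol. Members and lists were chosen with earlier results of these data known. Values per library were given for members with at least 10% of their step, those without overlap, Hif1a, prolyl hydroxylases and mitophagy receptors, and others by their range.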

Additional observations from a re-analysis of the deposited data

How the results depend on the processing

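Members called stayed at 0 under every alternative, as did the further pathway genes called. Over all genes, DESeq2 called 29 and the fits without 1 library called between 0 and 2. No single member passed the adjustment in any fit. Without Mll5+/- replicate 1, edgeR had 4 of 29 tested members under an unadjusted p of 0.05, beside 462 of all 11253 genes tested. These were Hk1, Pfkfb3, P4ha1 and Bnip3l, all lower (unadjusted p = 0.00711, 0.00992, 0.0473 and 0.0364 in edgeR). Without Mll5+/- replicate 2, edgeR had 1 of 29 (Pfkfb4, lower), beside 500 of all 11177 genes tested. The fits without Mll5+/- replicate 3, WT replicate 1, WT replicate 2 or WT replicate 3 had 0 members. Of 173 member values with all 6 libraries, 4 took the opposite sign: limma-voom gave Pfkp -0.88, Pgam1 -0.24 and Ddit4 0.39, and total counts without TMM gave Pdk1 0.0015. Of 172 values with a library left out, 20 did, while 18 of 29 members never changed sign in the values given. Another 2 such fits left a genotype with 0 counts, so no fold is given: Hk1 without Mll5+/- replicate 1 and Aldoc without WT replicate 2 (unadjusted p = 0.0571 in edgeR). Leaving out a library moved the log2 fold change by over 1.5 times, or turned it, for 27 of the 29 members. The log2 fold changes then ran from -1.03 to 1.26 for Pfkl, -0.86 to 1.51 for Pfkp, -3.69 to 0.0249 for Pfkfb3, -0.67 to 1.34 for Aldoc, -0.45 to 0.75 for Tpi1 and -1.37 to 0.43 for Pgam1. They ran from -0.26 to 0.48 for Eno1, -0.29 to 0.38 for Pkm, -0.29 to 0.20 for Pdk1, -1.12 to 0.0432 for P4ha1 and -0.90 to 1.53 for Ddit4. The hypoxia median, -0.27 with all libraries, ran from -0.40 without Mll5+/- replicate 1 to -0.0492 without Mll5+/- replicate 3. Isozyme shares per coding length, an alternative added after seeing the data, moved by less than the spread between libraries. The glycolysis minus hypoxia difference, -0.0776, also moved by less than that spread but turned sign with log2(CPM + 2), to 0.0489, and without WT replicate 2, to 0.0502. Shares per RefSeq protein length were not run. No paired analysis was possible because the replicate numbers follow the order of the samples and pair no mice. Pfkm, Eno2, Aldoc, Hk1 and Slc2a3 had 0 counts in at least 1 library, which at these depths allows up to between 0.104 and 0.142 CPM.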

Other observations

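Pfkfb3 and P4ha1 were picked out after their values were seen, because they put the libraries in nearly the same order. P4ha1 had 190, 78.1 and 42.2 CPM in Mll5+/- labelled mice, against 183, 135 and 70.3 CPM in WT labelled mice, so that Mll5+/- replicate 1 and WT replicates 1 and 2 were the 3 highest for both genes. Mll5+/- replicate 3 was lowest for both. Plin2, also picked out after its values were seen, the lipid droplet coat gene and a HIF target outside the list, had 22.4, 6.07 and 0.473 CPM in Mll5+/- labelled mice, against 11.5, 12.6 and 3.43 CPM in WT labelled mice, with the same 3 libraries highest. Hif1a did not share this order, since WT replicate 3 was highest for it. Among the other hypoxia members, Pdk1 was highest in the same libraries, Mll5+/- replicate 1 (128 CPM) and WT replicates 1 and 2 (94.5 and 127 CPM). Egln1, Bnip3l, Ero1a, Bnip3 and Ddit4 were not. Bnip3 was highest in Mll5+/- replicate 3 (22.3 CPM) and Ddit4 in WT replicate 3 (23.7 CPM). The share of all tested genes highest in Mll5+/- replicate 1 and WT replicates 1 and 2 was not counted.

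Outside the list, the genes with the highest CPM of pyruvate entry and of the pentose phosphate pathway were Pdp2 and Pgd. Pdp2, a pyruvate dehydrogenase phosphatase that opposes Pdk1, averaged 489 ± 75.7 CPM in Mll5+/- labelled mice, against 422 ± 55.2 CPM in WT labelled mice (SD, n = 3 each). Pgd, the second oxidative enzyme of the pentose phosphate pathway, averaged 142 ± 19.4 CPM in Mll5+/- labelled mice, against 119 ± 42.6 CPM in WT labelled mice (SD, n = 3 each). None of Pdp2, Pgd and Plin2 passed the test in edgeR.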
